A study of Rattus norvegicus with 12 samples.

Results

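The genes described here had low RNA levels, before adipogenic induction, in muscle progenitors taken from unloaded rats. They were low after both of the unloading periods tested. A gene was included if its mean level at day 0 was at least 5 CPM (a gene's counts scaled to a common library total) in control cells and if the ratio of its day 0 mean to the control mean, each with 0.5 CPM added, was at most 0.5 both after 7 and after 14 days of unloading. This held for 72 of the 32622 genes in the count table, and of the 9803 genes that reached the control level. The genes were thus chosen by their day 0 levels, which are given as a description only, while the day 3 libraries had no part in the choice.

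Fibro-adipogenic progenitors (FAPs) are mesenchymal cells of skeletal muscle that support regeneration and can turn into fibroblasts or fat cells. In hindlimb suspension the hind limbs carry no load, and the soleus, a postural muscle, is among the muscles that respond most. An adipogenic cocktail of insulin, dexamethasone (a glucocorticoid) and 3-isobutyl-1-methylxanthine (an inhibitor of phosphodiesterases, which raises cAMP) starts fat cell differentiation in cultured progenitors.

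Poly(A) RNA was sequenced from primary FAP cultures of rat soleus. The 6 groups of 2 libraries were cells of control rats, of rats suspended for 7 days and of rats suspended for 14 days (7-day and 14-day cells below), each at day 0, grown to a subconfluent state in medium with serum, and at day 3 of induction with the cocktail named above. The labels used here give no strain, age or genotype, and do not say whether the 2 libraries of a group came from separate animals or cultures, so the spread that the p-values rest on is that between 2 libraries and may be technical. No group was kept for 3 days without induction, so induction cannot be told apart from time in culture.

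The files pair no gene identifier with a name. The RefSeq table of rat genes (GRCr8) at hand listed no Ensembl identifiers, so none of the 32622, nor of the 72, could be matched. No gene's function, position or sequence is therefore given, the cell type of the cultures could not be checked against marker genes, and 4 of the 72 genes are named by identifier. They are the genes with the largest tested falls and rises, 2 in each direction, in 14-day cells at day 3. The others are described by rank, level and count.

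Libraries held 15105521 to 21484885 counts, with 14930 to 15275 genes detected. Over all genes, replicates correlated at r = 0.997 to 0.998 in log2 (CPM + 0.5). For the 72 genes the median absolute log2 ratio between the 2 libraries of a group was 0.0914 to 0.204, and 1 gene differed between the libraries of a group (7-day cells, day 0) by more than 1 on that scale. Levels below are CPM of the total count, and differences between groups come from edgeR's quasi-likelihood fit to all 12 libraries, as log2 values with TMM scaling. In RNA from whole cultures, fewer cells expressing a gene and less of its RNA per cell cannot be told apart.

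At day 0 the 72 genes together took 0.541% and 0.543% of the counts in the control libraries. They took 0.204% and 0.206% in 7-day cells, and 0.169% in both libraries of 14-day cells. The median gene stood at 22.98 CPM in control cells, 7.77 CPM in 7-day cells and 6.33 CPM in 14-day cells. In control cells the genes ranged from 5.07 to 937 CPM, and 10 of them were at 100 CPM or more. The median log2 difference from control was -1.48 after 7 days, with single genes from -1.11 to -3.20, and -1.83 after 14 days, from -1.0 to -6.19. These values follow from the choice. On their own, the 7-day ratio kept 92 genes and the 14-day ratio 142. The 3 genes just inside the limit had a larger ratio of 0.492, 0.490 and 0.489, and the 3 just outside it 0.5005, 0.502 and 0.504, while 60 genes lay between 0.5 and 0.6. Of the 72, 35 had a larger ratio above 0.4.

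**Figure D1:**
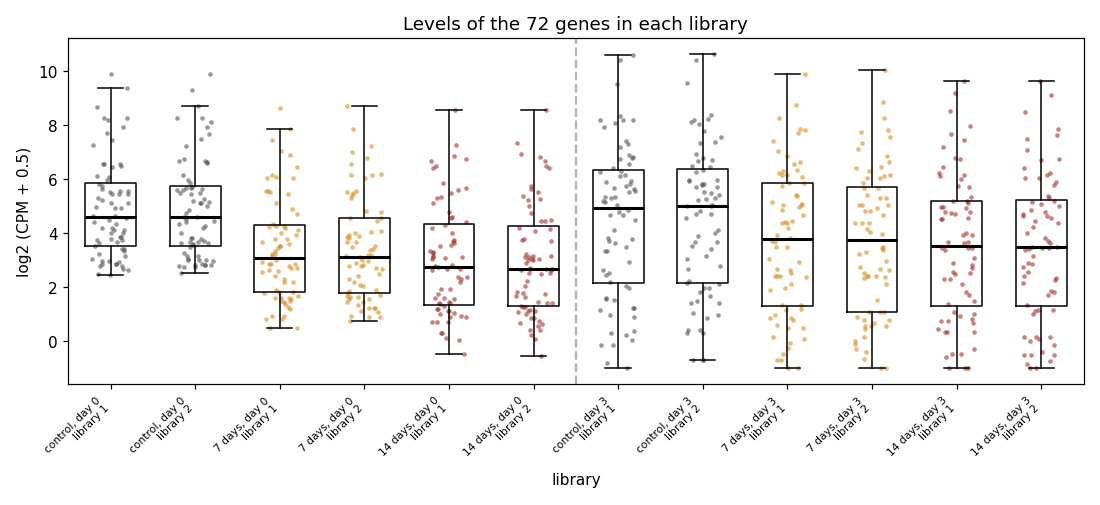
Level of each of the 72 genes (points, log2 of CPM + 0.5) in each of the 12 libraries, with the median, quartiles and whiskers to the farthest point within 1.5 times the interquartile range; grey is control, orange 7 days and red 14 days of unloading. The day 0 libraries, left of the dashed line, chose the genes; at day 3 the medians of the unloaded libraries were again below those of control, and the genes were spread over a wider range than at day 0.

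The most abundant gene of the 72 at day 0 had 932 and 943 CPM in the control libraries, 387 and 416 CPM in 7-day cells, and 368 and 371 CPM in 14-day cells. At day 3 its libraries stood at 731 and 736, at 417 and 455, and at 578 and 546 CPM. Its day 3 groups did not overlap, and 7-day cells were the lowest. It was lower than in control cells after 7 days by a log2 difference of -0.76 (SE 0.0524, edgeR adjusted p = 2.49e-14) and after 14 days by -0.28 (SE 0.0519, edgeR adjusted p = 5.1e-05). Of the 6 genes with the highest control level at day 0 (283 to 937 CPM), 5 were lower than control at day 3 in 7-day cells and 5 in 14-day cells. Over all genes tested, 7.43% and 15.3% were lower. The remaining gene had no call after 7 days and was higher after 14 days (log2 difference 0.65, edgeR adjusted p = 1.19e-11). The smallest of the falls was a log2 difference of -0.17 after 14 days (edgeR adjusted p = 0.0301).

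The question the day 3 libraries answer is whether these genes were still lower than control after induction. Most tested as lower, by any size of difference. The smallest falls called were log2 differences of -0.25 after 7 days and -0.17 after 14 days. Only 28 of the 72 were lower by at least 2-fold in each comparison, so most were not low to the degree that chose them. The differences were mostly smaller than at day 0, but the choice by low day 0 ratios favours this in other libraries. After 7 days of unloading, 46 of the 72 tested as lower than control at day 3 and 3 as higher, and 23 had no call (edgeR, FDR 0.05). Thus 63.9% of the genes were lower, where the background was 7.43% lower and 6.75% higher over all 13215 genes tested, and 8.52% lower and 6.48% higher over the 9803 genes at control levels that the choice allowed. After 14 days, 44 tested as lower and 6 as higher, and 22 had no call: 61.1% lower, against 15.3% lower and 16% higher over all genes tested and 18.1% lower and 18.9% higher over the 9803. With scaling to the total count alone, 49 tested as lower after 14 days (68.1%) and 5 as higher, against 23.2% lower and 10% higher over all genes tested. These comparisons share the control libraries, so a deviation of those libraries would enter both.

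A difference of at least 2-fold was found in 28 of the lower genes in each comparison, or 38.9% of the 72, where 1.91% of all genes tested after 7 days and 2.9% after 14 days were lower by as much, and 1.26% and 2.02% of the 9803. At least 4-fold lower were 11 genes after 7 days, against 0.908% of all genes tested and 0.347% of the 9803, and 12 after 14 days, against 1.26% and 0.428%. The median log2 difference of the 72 was -0.86 after 7 days (quartiles -1.24 and -0.29) and -0.81 after 14 days (quartiles -1.64 and -0.20). The median of all genes tested was 0.0024 and 0.024. All 72 genes passed the filter on low counts, which their control day 0 level fulfils by itself, and 67 would pass it on the day 3 libraries alone. Of the 5 genes that would not, 1 tested as lower in each comparison. At day 3, 6 genes were under 1 CPM in every library, so their differences rest on few reads. Of the counts from 1 to 20, 69.4% were even over all genes and 86.5% over the 72 genes. Whether a fragment added 2 to the count was not tested, and in that case a low count stands for fewer fragments than it shows. With all counts halved, 44 genes tested as lower in each comparison.

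**Figure D2:**
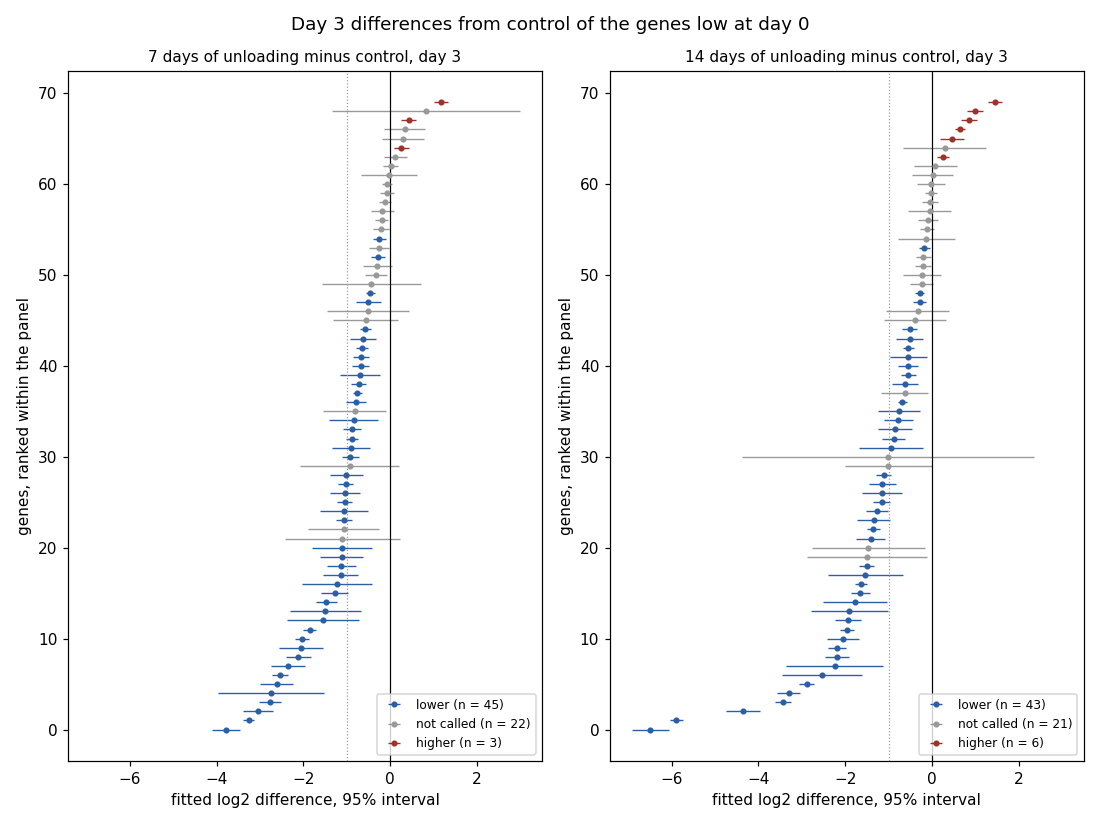
Fitted log2 difference from control at day 3 with its 95% interval, for 70 genes in each panel (a gene with 0 reads in a group is left out), ranked within the panel; blue genes were lower and red genes higher at an FDR of 0.05, grey genes did not pass, and the dotted line marks a 2-fold lower level. In the left panel (7 days) 45 of the plotted genes were lower, in the right panel (14 days) 43, with a longer tail to the left.

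For the genes that did not pass, the intervals, which are approximate, say how much was left undecided. After 7 days, 14 of the 23 had a 95% interval that excluded a 2-fold lower level, and 9 had one that reached it. After 14 days these numbers were 14 of 22 and 8. One of them, a gene without a call in either comparison, had 93.1 and 87.6 CPM in control cells at day 3, 98.4 and 84.3 CPM in 7-day cells and 73.9 and 72.8 CPM in 14-day cells. Its control and 7-day libraries overlapped, and neither difference passed (adjusted p = 0.968 after 7 days and 0.0796 after 14 days, edgeR), although at day 0 it had stood at 11.1 CPM in control cells and at 2.81 and 2.56 CPM in unloaded cells.

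The largest tested fall was that of ENSRNOG00000047046. At day 0 it had 6.77 and 6.19 CPM in the control libraries, 0.887 and 1.35 CPM in 7-day cells and 1.14 and 1.72 CPM in 14-day cells. At day 3 control cells held 70.4 and 61.6 CPM, 7-day cells 4.84 and 4.82 CPM, and 14-day cells 0.745 and 0.603 CPM, the last from counts of 14 and 12. Control libraries were the highest and 14-day libraries the lowest, without overlap. The log2 difference from control was -3.78 after 7 days (SE 0.16, edgeR adjusted p = 9.01e-21) and -6.50 after 14 days (SE 0.21, edgeR adjusted p = 2.4e-24). Its day 3 mean was 10.2 times its day 0 mean in control cells, 4.32 times in 7-day cells and 0.471 times in 14-day cells.

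ENSRNOG00000010805 was the gene of the 72 with the highest control level at day 3. Its control libraries held 16.6 and 17.4 CPM at day 0 and 1526 and 1579 CPM at day 3. In 7-day cells it went from 2.66 and 3.99 CPM to 168 and 157 CPM, and in 14-day cells from 1.497 and 1.16 CPM to 25.3 and 23.1 CPM. Every group thus stood above its own day 0 level, by 91.2-fold, 48.9-fold and 18.2-fold. The order control, 7 days, 14 days was the same at both days, with no overlap. At day 3 it was lower than in control cells by log2 differences of -3.26 (SE 0.0632) and -5.90 (SE 0.0753), with edgeR adjusted p = 2.8e-31 and 1.92e-37. This gene alone made up 1552 ± 37.8 CPM (SD, n = 2) of the 7605 ± 31.9 CPM that the 72 genes held in control cells at day 3.

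Without it, the other 71 genes held 6053 ± 5.93 CPM in control cells at day 3, 3937 ± 58.9 CPM in 7-day cells and 3708 ± 42.6 CPM in 14-day cells (SD, n = 2). At day 0 these sums had been 5401 ± 13.5, 2046 ± 7.88 and 1688 ± 5.79 CPM. The summed level was thus lower in unloaded cells at both days, with no overlap of libraries. The ratio to control was closer to 1 at day 3. The day 0 values follow from the choice, which also favours a ratio closer to 1 in other libraries.

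The 2 genes with the largest tested rises against control at day 3 had been low at day 0. ENSRNOG00000023548 had the lowest day 0 ratios of all 72 genes: 68.0 and 57.0 CPM in control cells, 7.54 and 6.56 CPM in 7-day cells, and 0.568 and 1.07 CPM in 14-day cells. At day 3 its libraries held 59.4 and 55.6 CPM (control), 69.4 and 68.9 CPM (7 days) and 109 and 104 CPM (14 days). The order of the groups at day 3 was the reverse of that at day 0. In 14-day cells it was higher than in control cells by a log2 difference of 0.99 (SE 0.0865, edgeR adjusted p = 1.12e-11). After 7 days the difference was 0.26 (SE 0.0885, edgeR adjusted p = 0.0432), a call that was lost when any 1 of the 6 day 3 libraries was left out (edgeR adjusted p = 0.0738 to 0.294). Its day 3 mean was 0.919 times its day 0 mean in control cells, 9.81 times in 7-day cells and 130 times in 14-day cells.

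ENSRNOG00000011946 showed the same reversal. At day 0 control cells held 46.1 and 49.6 CPM, 7-day cells 15.2 and 15.8 CPM and 14-day cells 8.10 and 7.54 CPM. At day 3 control cells held 39.1 and 44.7 CPM, 7-day cells 93.7 and 97.0 CPM and 14-day cells 107 and 106 CPM. It was higher than in control cells after 7 days by a log2 difference of 1.18 (SE 0.0820, edgeR adjusted p = 3.3e-14) and after 14 days by 1.45 (SE 0.0814, edgeR adjusted p = 4.44e-17). Another gene was higher in both comparisons, with 39.0 and 37.3 CPM in control cells, 52.5 and 50.3 CPM in 7-day cells and 63.1 and 65.1 CPM in 14-day cells at day 3. The remaining 3 genes that were higher in 14-day cells had log2 differences of 0.25, 0.46 and 0.65. The gene at 0.46 had the opposite call after 7 days (log2 difference -0.51, SE 0.142, edgeR adjusted p = 0.0108): its day 3 libraries held 26.7 and 31.4 CPM in control cells, 20.8 and 20.3 CPM in 7-day cells and 36.0 and 38.4 CPM in 14-day cells.

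**Figure D3:**
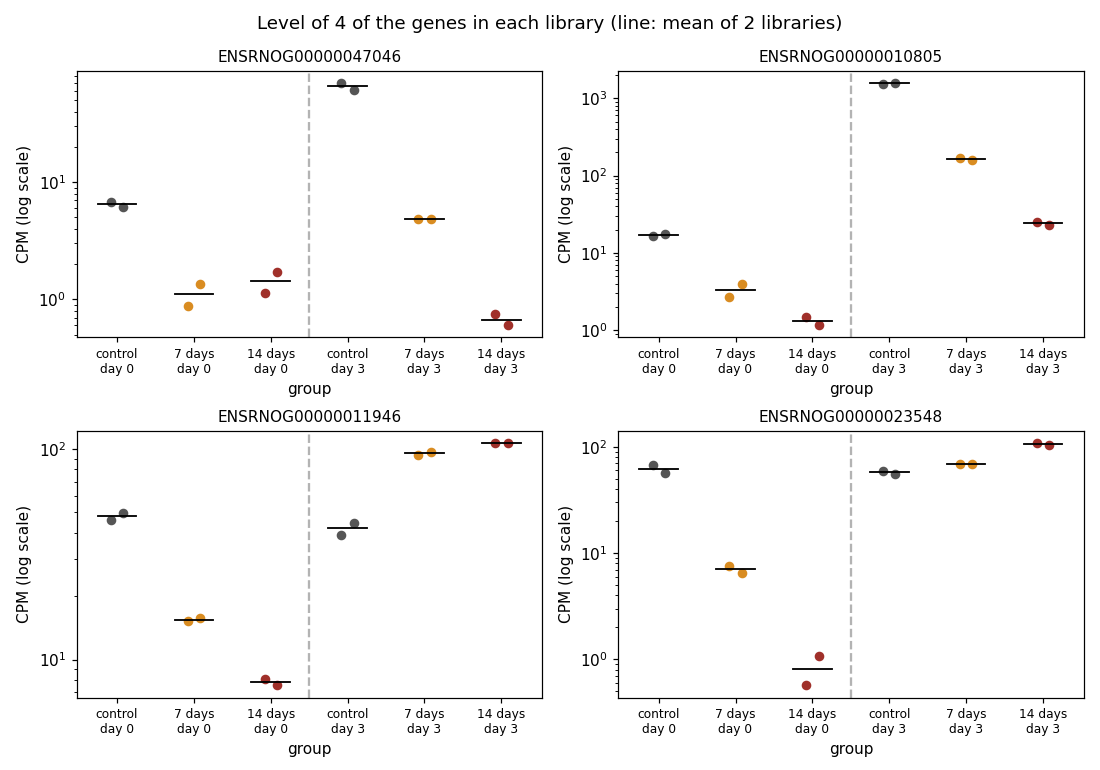
CPM (log scale) in each library of the 4 genes named by identifier, with a line at the mean of the 2 libraries of each group; grey is control, orange 7 days and red 14 days of unloading. In the upper genes the unloaded libraries lay below control at both days; in the lower genes they lay below control at day 0 and above it at day 3.

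The 72 genes did not share 1 course from day 0 to day 3. In control cells 20 of them were at least 2-fold above their day 0 level at day 3, 20 were within 2-fold of it and 32 were at least 2-fold below it, with fitted log2 changes from -6.19 to 6.50. In 7-day cells these numbers were 30, 20 and 22, and in 14-day cells 29, 22 and 21. The median log2 change was -0.45 in control cells, 0.23 in 7-day cells and 0.54 in 14-day cells. Genes picked for high control and low unloaded values at day 0 lean this way by the choice alone, so no test of these changes is given.

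The 20 genes that were at least 2-fold above day 0 in control cells had a median of 14.6 CPM there at day 0 and 131 CPM at day 3. At day 3 their median was 62.7 CPM in 7-day cells and 31.0 CPM in 14-day cells. After 7 days 15 of the 20 tested as lower than control, 12 of them by at least 2-fold, and 5 had no call. After 14 days 16 tested as lower, 13 by at least 2-fold, and 2 as higher. Their median log2 difference from control at day 3 was -1.30 after 7 days and -1.79 after 14 days. The sums of their levels were 5294 and 5332 CPM in the control libraries, 2478 and 2545 CPM in 7-day cells, and 1948 and 1930 CPM in 14-day cells. This grouping uses the control day 3 libraries that enter the comparison, and a high value there makes a lower difference more likely. Here and in the other classes below, no share of all genes tested in the same class is given. Whether these counts are particular to the chosen genes was therefore not tested. The classes also differed in their level at day 3, and a call is harder to reach at low counts. Their counts of calls are therefore not comparable with each other.

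Of these 20, the gene with the second highest control level at day 3 differed less than ENSRNOG00000010805. It held 1340 and 1343 CPM in control cells, 937 and 1029 CPM in 7-day cells and 772 and 776 CPM in 14-day cells. The log2 differences were -0.46 (SE 0.0512, edgeR adjusted p = 7.26e-09) and -0.69 (SE 0.0514, edgeR adjusted p = 1.67e-13). A gene with 288 and 297 CPM in control cells stood at 73.2 and 70.5 CPM after 7 days and at 39.1 and 34.7 CPM after 14 days (log2 differences -2.03, SE 0.0800, and -2.88, SE 0.0845).

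Among the 20 genes within 2-fold of their day 0 level in control cells, 13 were lower after 7 days and 3 higher, and 14 were lower after 14 days and 3 higher. Their medians at day 3 were 42.7 CPM in control cells, 31.9 CPM in 7-day cells and 23.1 CPM in 14-day cells. ENSRNOG00000023548 and ENSRNOG00000011946 are in this set.

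The 32 genes that were at least 2-fold below day 0 in control cells had medians at day 3 of 3.24, 1.56 and 1.81 CPM in control, 7-day and 14-day cells. After 7 days 18 of them tested as lower than control and 14 had no call. After 14 days 14 tested as lower and 1 as higher, and 17 had no call. The median log2 differences were -0.89 and -0.59. A gene of the 6 with the lowest day 0 ratios had 51.9 and 47.3 CPM at day 0 and 0.794 and 0.839 CPM at day 3 in control cells. At day 3 it held 0.11 and 0.122 CPM in 7-day cells and 0.213 and 0.10 CPM in 14-day cells. It was called lower in both, from counts of 2 and 2, and of 4 and 2, against 12 and 14 in control cells. These calls thus rest on few reads. One gene with calls in both comparisons had 8 and 2 counts in control cells at day 3 and 0 in all 4 unloaded libraries. It entered the fit only through its day 0 levels, which chose it. Its calls, 1 of the 46 and 1 of the 44, rest on these few reads. With 0 reads set to a floor of 3 counts, it was at least 3.62-fold lower after 7 days and 4.06-fold after 14 days. It is therefore among the 28 genes at least 2-fold lower in each comparison and the 12 at least 4-fold lower after 14 days. The second most abundant gene at day 0, at 646 and 620 CPM in control cells, also belongs here. At day 3 it held 117 and 121 CPM in control cells and 115 and 114 CPM in 7-day cells (edgeR adjusted p = 0.553), and 173 and 176 CPM in 14-day cells. Its log2 difference from control after 14 days was 0.65 (SE 0.0571, edgeR adjusted p = 1.19e-11).

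**Figure D4:**
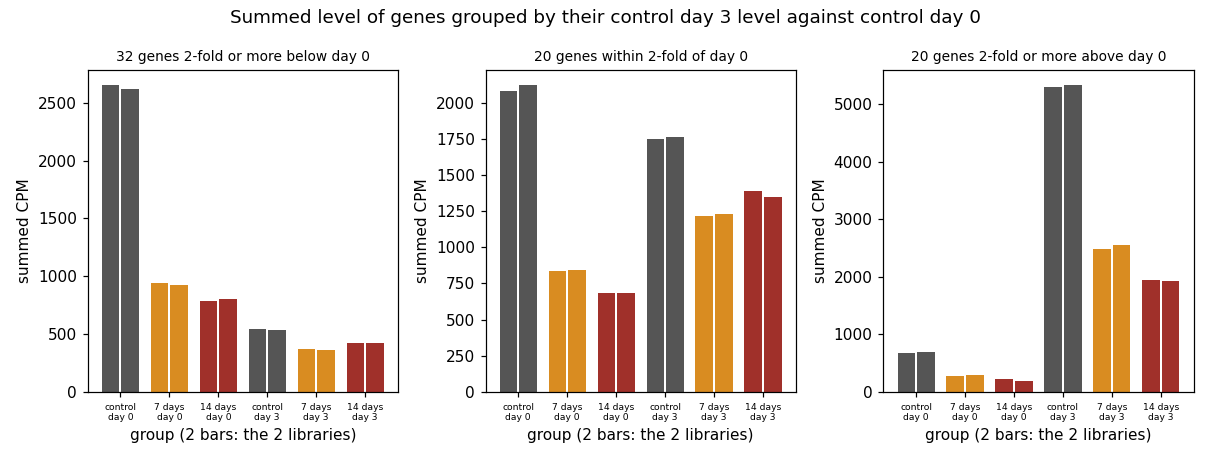
Summed CPM per library (1 bar each; grey control, orange 7 days, red 14 days of unloading) of the genes 2-fold or more below, within 2-fold of, and 2-fold or more above their day 0 level at day 3 in control cells; each panel has its own axis from 0. In all 3 panels the unloaded libraries lay below control at day 3, by the most in the right panel, whose grouping uses the control day 3 libraries.

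Grouping by the change in the other unloaded treatment avoids that shared library at day 3. Of the 29 genes at least 2-fold above day 0 in 14-day cells, 20 were lower than control at day 3 in 7-day cells and 3 higher, and of the 21 at least 2-fold below day 0, 10 were lower and none higher. Of the 30 genes at least 2-fold above day 0 in 7-day cells, 22 were lower than control in 14-day cells and 5 higher, and of the 22 at least 2-fold below, 9 were lower and none higher. Median log2 differences from control in these 4 sets were -0.88, -0.94, -1.0 and -0.79. The genes within 2-fold of day 0 had medians of -0.77 after 7 days and -0.55 after 14 days, with 16 of 22 and 13 of 20 lower. In both comparisons the share of genes called lower was larger among those above day 0 than among those below it. After 7 days it was largest among the genes within 2-fold. The medians of the genes above and below day 0 differed by less than in the first grouping, and after 7 days their order was reversed. A call is harder to reach at low counts, and whether this lowered the share below day 0 was not tested. No shares of all genes tested are given for these classes either. Whether the larger share above day 0 is particular to the chosen genes was therefore not tested.

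Day 0 and day 3 differences from control share no library and were compared gene by gene. After 7 days the difference was smaller in size at day 3 than at day 0 in 57 of the 72 genes and after 14 days in 58. It was more negative at day 3 in 15 and 14 genes, and above 0 in 8 and 9. Since the genes were picked for low day 0 ratios, a smaller difference in other libraries is favoured by the choice. Over the 72 genes the correlation of both differences was r = 0.27 after 7 days (Spearman 0.22) and 0.14 after 14 days (0.16), where r over all 13215 genes tested was 0.43 and 0.19. These are descriptions over genes that share libraries, and the choice narrowed the range of day 0 values. Of the 6 genes with the lowest day 0 ratios (mean log2 of both), 5 were lower at day 3 in each comparison, against 7.43% and 15.3% of all genes tested. The remaining one was ENSRNOG00000023548. The largest falls, -3.26 and -5.90, were those of ENSRNOG00000010805. Some of the 5 rest on few reads. Their day 3 means in control, 7-day and 14-day cells were 1.92, 0.825 and 0.473 CPM, 2.61, 0.928 and 0.411 CPM, and 0.817, 0.116 and 0.157 CPM.

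**Figure D5:**
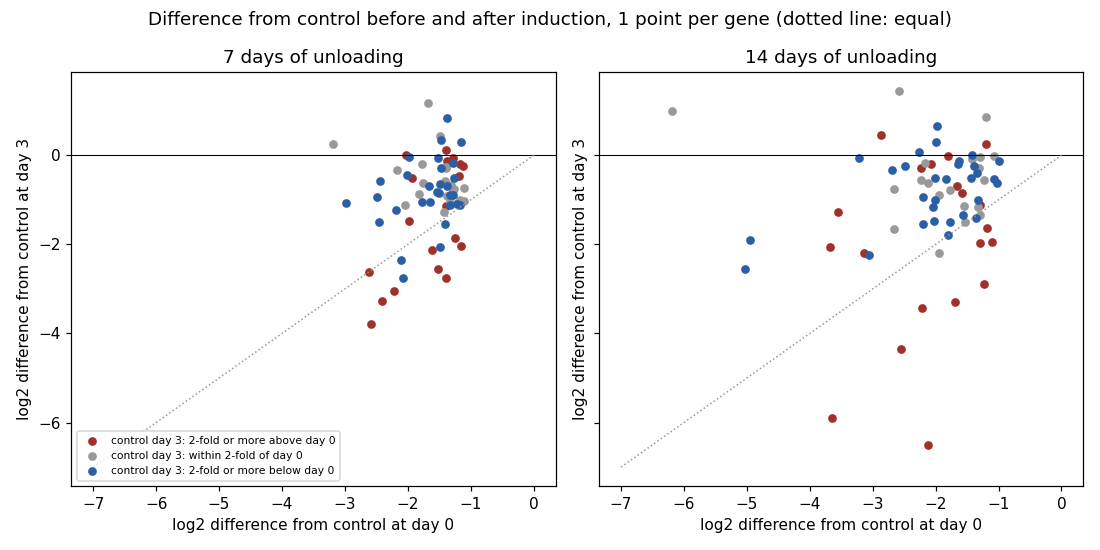
Fitted log2 difference from control at day 0 (x axis, the values that chose the genes) and at day 3 (y axis) for each gene with reads in both day 3 groups compared, after 7 days (left) and 14 days (right) of unloading; colours give the control level at day 3 against day 0, and the dotted line marks equal differences. Most points lay between the dotted line and 0, and the 6 points farthest below the line in each panel were genes that control cells held at least 2-fold above day 0.

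The last comparison set the unloading periods against each other at day 3. Of the 72 genes, 15 tested as lower and 19 as higher in 14-day than in 7-day cells (edgeR, FDR 0.05), and 38 had no call, with a median log2 difference of 0.065. This is 20.8% lower and 26.4% higher, where 11% and 11.6% of all genes tested, and 12% and 14.4% of the 9803, were lower and higher. With scaling to the total count alone, 18 tested as lower (25%) and 16 as higher (22.2%), against 19.7% lower and 5.59% higher over all genes tested, so the share of lower genes was then close to the background. At least 2-fold lower were 6 genes, where 2.44% of all genes tested and 0.734% of the 9803 were. At least 2-fold higher were 2, where 0.673% and 0.204% were. ENSRNOG00000047046 was lower in 14-day cells by a log2 difference of -2.72 (SE 0.28, edgeR adjusted p = 1.35e-09) and ENSRNOG00000010805 by -2.63 (SE 0.0725, edgeR adjusted p = 5.65e-26). Of the 20 genes at least 2-fold above day 0 in control cells, 9 were lower after 14 than after 7 days and 3 higher. Of the 32 at least 2-fold below day 0, 1 was lower and 9 were higher. The shares of all genes tested in the same classes are not given. Whether this contrast is particular to the 72 genes was therefore not tested.

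In 3 genes, singled out after their values were seen, the 14-day cells differed from both other groups at day 3. They had means of 229, 81.3 and 49.1 CPM in control cells and 218, 70.8 and 53.5 CPM in 7-day cells, but 54.5, 16.6 and 11.9 CPM in 14-day cells. Their log2 differences between 14-day and 7-day cells were -1.89, -1.98 and -2.06 (edgeR adjusted p = 5.44e-20, 3.27e-17 and 9.2e-14). For none of them did 7-day cells against control pass the test (edgeR adjusted p = 0.619, 0.154 and 0.638). At day 0 they had all been low in both unloaded groups: the first held 95.6 CPM in control cells, 40.7 CPM in 7-day cells and 38.0 CPM in 14-day cells.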

How the data were processed

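The deposited table holds raw counts per Ensembl rat gene in 12 columns, 1 per library, and 0 columns were left unused. The submitters' processing notes name STAR 2.7, featureCounts 1.6.4, FastQC 0.11.9, DESeq2 and the build Rnor_6.0. The sources used here do not say how each was run or whether counting used strand, so reads of overlapping genes or near-identical copies may be shared.

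The 72 genes, the lists and the tests were chosen with earlier results of these data known. The choice used CPM of the column sum at day 0. All 13215 genes kept by filterByExpr were fitted with edgeR 4.0.16 in R 4.3.3 (TMM, glmQLFit, glmQLFTest, 6 group means, 12 libraries, 6 residual degrees of freedom), with two-sided tests and Benjamini-Hochberg FDR 0.05 in each of 3 comparisons. Genes to name were to be list members and ranked genes with a symbol; without symbols, only 2 identifiers in each direction were used, from 14-day cells against control at day 3, and no gene list or marker list could be matched. A group with 0 reads was set to a floor of 3 counts where the 72 genes were counted by fold. The shares by fold over all genes tested and over the 9803 used the fitted differences without a floor. Alternatives were other scalings, filters, DESeq2 1.42.0, day 3 libraries alone, halved counts, a replicate block, leaving out each library, and other limits in the choice.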

Additional observations from a re-analysis of the deposited data

Results flagged for a closer look

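These results stand here because the difference from control at day 3 was not the same after 14 as after 7 days of unloading, by edgeR's test of the 14-day against the 7-day libraries. Of the 72 genes, 15 were lower (20.8%) and 19 higher (26.4%) after 14 days, where 11% and 11.6% of all genes tested were. With scaling to the total count alone, the share of lower genes was close to that over all genes tested. The log2 difference, 14 minus 7 days, was -2.72 for ENSRNOG00000047046, -2.63 for ENSRNOG00000010805, 0.27 for ENSRNOG00000011946 and 0.73 for ENSRNOG00000023548 (adjusted p = 1.35e-09, 5.65e-26, 0.00742 and 2.25e-08). For ENSRNOG00000011946 the difference did not pass with scaling to the total count (adjusted p = 0.127), without the first 14-day library of day 3 (0.0522) or without the first 7-day library of day 3 (0.0667).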

How the results depend on the processing

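Each of the 6 counts of genes lower or higher at day 3 was recomputed under 24 alternatives. Only choosing the genes by ratios of at most 0.4, which leaves 37 genes, moved counts by more than 1.5 times: 23 were then lower after 7 days and 24 after 14 days, and between 14 and 7 days 8 were lower and 9 higher. Leaving out 1 library from the test or from the choice gave 36 to 48 lower and 2 to 3 higher genes after 7 days, 38 to 46 and 4 to 9 after 14 days, and 13 to 16 and 14 to 20 between the periods. With a replicate block the counts were 46 and 3, 43 and 6, and 15 and 19; deviations of libraries with the same number correlated at 0.011, -0.0016 and -0.055 in the 3 comparisons, and the labels do not say that a number marks a shared animal or day. Scaling to the total count moved the median of all genes by -0.10 in 14-day cells against control and by -0.11 against 7-day cells; the counts it gave stand beside the comparisons. Fitted on the day 3 libraries alone, 44 of 67 genes were lower after 7 days and 42 of 67 after 14 days, against 8.61% and 17.5% of all genes tested. Placing genes with 0 reads at the floor, and leaving out those with at most 3 counts in both groups, changed the median log2 differences at day 3 to -0.85 and -0.77. Over the other alternatives these medians ran from -1.05 to -0.71 after 7 days and from -1.15 to -0.59 after 14 days, and the median difference between 14 and 7 days from 0 to 0.17. The call of ENSRNOG00000023548 after 7 days was lost under 7 of 14 alternatives (adjusted p 0.00532 to 0.294 over all), among them DESeq2 and leaving out any day 3 library.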
